A study of Mus musculus with 19 samples.

Results

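Gene expression in sorted glial cells of the mouse sciatic nerve at embryonic day 14 (E14) was set against that at embryonic day 12 (E12). Every array labelled as sciatic nerve of these stages was taken, 3 of E14 and 3 of E12, which makes 6 of the 19 arrays of the study. The labels call the E14 cells Schwann cells and the E12 cells Schwann cell precursor cells. Embryos of both stages carried green fluorescent protein (GFP) driven by the promoter of the proteolipid protein gene (Plp), which is active in crest stem cells and afterwards in glia, so the sort takes whatever cells of the nerve used that promoter. GFP-positive cells were isolated by fluorescence-activated sorting, RNA was purified on RNeasy columns and amplified by 2 rounds of in vitro transcription, and the target was hybridized to Affymetrix mouse arrays. The other 13 arrays (trunk crest cells of E9.5 and nerve cells of E16, E18 and the day of birth, P0) served for the estimate of the spread and for the later course. Nothing in the labels ties the replicates of a stage to different embryos or litters, so a p-value here reflects only how far these samples spread, which may be technical.

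Schwann cell precursors are the first glia of a peripheral nerve. They migrate along growing axons, depend on neuregulin from those axons and make no basal lamina of their own. Their progeny, the immature Schwann cells, secrete a basal lamina, become less dependent on axons for survival and take control of axon sorting. Myelination itself begins around birth, after the transcription factors Oct6 (Pou3f1) and Krox20 (Egr2) have come on, but several genes of the myelin membrane are already transcribed in the embryo. Signals such as BMP, acting through Id proteins, and Notch are known to hold immature glia back from differentiation or to steer it.

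The arrays of both stages had like medians, and the E14 arrays a higher 3' to 5' ratio of GAPDH signal. Values are expression indices, a linear intensity per probe set, and the number of arrays, 3 a stage, limits the precision. The median index per array ran from 190.3 to 199.7 at E14 and from 195.5 to 197.4 at E12. The signal of the GAPDH control probe sets at the 3' end of the transcript over that at the 5' end, which is higher where the RNA is shorter, was 6.23, 5.10 and 5.45 on the E14 arrays, against 4.53, 4.23 and 3.18 on the E12 arrays. The same ratio for actin was 5.21, 3.44 and 4.06 on the E14 arrays and 3.76, 4.15 and 2.74 on the E12 arrays, with overlapping stages. Rank correlations over all probe sets were 0.934 to 0.959 between E14 arrays, 0.949 to 0.977 between E12 arrays and 0.905 to 0.944 across the stages. The labels give each array a lot number without saying what a lot is, and lots 1 and 2 each hold an array of both stages. Of the probe sets called below, 112 of 112 higher and 106 of 106 lower had the same sign within lot 1 and within lot 2. For 111 and 105 of them the stages do not overlap, which sets the sign within a lot in advance. The count therefore describes the calls and cannot test the lots. The part of the GAPDH ratio in the differences was not tested beyond a fit with the GAPDH signal as a covariate, given with the other alternatives.

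The label of the cells was held against markers. Of 13 Schwann lineage markers on the array, Sox10, the transcription factor that defines peripheral glia, had indices of 943, 2328 and 1825 at E14 and of 1888, 2207 and 2695 at E12. Erbb3, the neuregulin receptor, had 3429, 3781 and 3973 at E14 and 3066, 3768 and 4056 at E12. Both genes stood far above the floor of 68.5, the 25th percentile of all values, on each of the 6 arrays. S100b, a calcium-binding protein of mature Schwann cells, was at the floor on all 6. The indices of the lineage markers summed to 25289.4 to 28100.2 per array at E14 and to 20070.4 to 24055.4 at E12. These sums include Pmp22, Dhh and Mbp, which were called higher at E14, so their difference is not separate from those calls.

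Markers of other cell types gave few calls outside the fibroblast genes described with the collagens. Of 15 neuron markers tested 0 were called, and Snap25, Syt1, Elavl4, Isl1, Scg2 and Map2 were at the floor on all 6 arrays. Others of the list stood well above it, such as Tubb3 (605, 873 and 848 at E14, 639, 722 and 804 at E12). Stmn2 had 583.2, 705.5 and 485.2 at E14 and 450.8, 495.4 and 506.0 at E12. Of 17 macrophage markers 0 were called. The 19 on the array summed to 3558.74 to 5251.91 at E14 and to 3953.67 to 7220.55 at E12. Fcer1g and Lyz2 were at the floor throughout, while Laptm5 had 940.5, 460.6 and 436.4 at E14 and 1410, 1051 and 811 at E12. Endothelium (12 tested), mural cells (10), skeletal muscle (16), melanocytes (6) and epithelium (9) also gave 0 calls by limma at an adjusted p of 0.05. At an unadjusted p of 0.05 the neuron list had 1 higher and 2 lower, the macrophage list 0 and 3, and endothelium 1 and 1. Mural cells had 0 and 2, muscle 0 and 1, melanocytes 1 and 0, and epithelium 0 and 0. Of all 10414 probe sets 1132 had an unadjusted p under 0.05 in either direction. Of all 7414 genes 1.13% were called higher and 1.07% lower, so 0 calls in lists of these sizes is near that share. Of 12 erythroid markers 1 was called, Hba-x, an embryonic globin, which had 204, 60.0 and 35.8 at E14 and 552, 1548 and 184 at E12. These values overlap, and without any 1 of E14 replicates 2 and 3 and E12 replicates 1 and 2 its adjusted p was 0.0704 to 0.123 (main 0.0204, 0.000474 to 0.258 over its alternatives). The log2 change of Hba-x was -2.45, and it was -1.69 without E12 replicate 2 and -3.23 without E12 replicate 4. The 12 erythroid markers, Hba-x among them, summed to 4765.35 to 8699.85 at E14 and to 5261.09 to 12558.3 at E12. Hbb-y, another globin, had 3185, 975 and 563 at E14 and 4251, 6192 and 1344 at E12.

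Of 10414 probe sets tested, 218 (2.09%) differed between E14 and E12 at an adjusted p under 0.05. At E14 112 (1.08%) were higher and 106 (1.02%) lower, standing for 91 and 96 genes, and no gene was called in both directions. The median change over all probe sets was -0.01 on the log2 scale. The rises were the larger changes. Of the 112 higher probe sets 93 changed by over 2-fold and 38 by over 4-fold, against 62 and 5 of the 106 lower. Folds are ratios of geometric means, from the fitted log2 difference, and can differ from the ratio of the means of the printed values. The median log2 change was 1.64 among the higher and -1.08 among the lower. The probe sets called higher had a median index of 536 at E14 and of 122 at E12, and those called lower 116 at E14 and 285 at E12. The 3 E14 values lay wholly above the 3 E12 values for 8.31% of all probe sets and wholly below them for 13.7%. Among the calls this held for 111 of the 112 higher and 105 of the 106 lower. In bulk RNA, fewer cells of a type and less RNA per cell cannot be told apart.

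**Figure D1:**
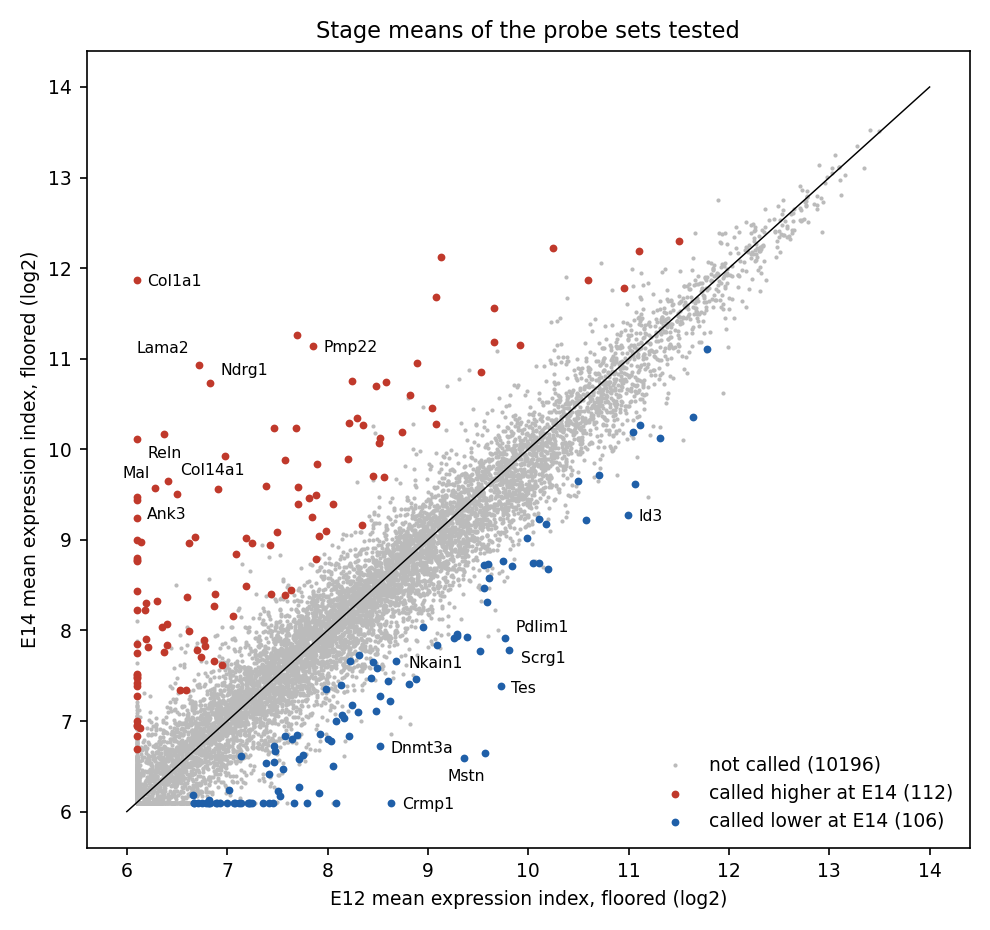
Mean expression index of each of the 10414 probe sets tested, E14 on the vertical and E12 on the horizontal axis, both log2 with values under the floor set to it. Red points are the 112 probe sets called higher at E14, blue points the 106 called lower, grey points the rest, and the line marks equal means. The red points reach farther from the line than the blue ones, with Col1a1 the farthest.

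The genes of largest change with a known transcript start show what lies upstream of them. RefSeq gives a promoter for 19 of the 30 genes of largest change, and for 14 of these a lone start. The 100 bases before the start are printed for the 3 largest rises and the 3 largest falls among those 14, on the strand of the gene and in build GRCm38.p6. Capitals mark the TATA letters TATAA, or TTATA, which is the same motif read on the other strand; 10.2% of 32851 such windows hold one.
Lama2, chr10:27616943-27617042 (-), higher at E14: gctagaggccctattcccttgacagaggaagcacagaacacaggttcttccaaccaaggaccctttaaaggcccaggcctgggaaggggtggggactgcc
Reln, chr5:22344706-22344805 (-), higher at E14: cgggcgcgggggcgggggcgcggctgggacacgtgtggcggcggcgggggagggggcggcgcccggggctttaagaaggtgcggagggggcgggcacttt
Mal, chr2:127656696-127656795 (-), higher at E14: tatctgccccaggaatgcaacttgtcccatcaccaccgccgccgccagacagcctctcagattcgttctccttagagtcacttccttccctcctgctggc
Mstn, chr1:53061540-53061639 (+), lower at E14: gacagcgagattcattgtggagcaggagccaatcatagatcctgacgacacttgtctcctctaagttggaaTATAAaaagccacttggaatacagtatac
Tes, chr6:17065049-17065148 (+), lower at E14: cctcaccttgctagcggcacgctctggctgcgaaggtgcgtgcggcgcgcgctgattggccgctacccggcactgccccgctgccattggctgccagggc
Pdlim1, chr19:40271617-40271716 (-), lower at E14: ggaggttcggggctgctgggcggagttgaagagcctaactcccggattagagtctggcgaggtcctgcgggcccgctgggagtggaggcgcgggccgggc
The letters occur in the window of Mstn and in none of the other 5.

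Genes of the myelin membrane were the group with the largest share of rises. Of 12 tested 6 were called higher (Ndrg1, Mal, Pmp22, Mbp, Cd9 and Cldn11) and 0 lower, with a median log2 change of 1.13, against 1.13% higher and 1.07% lower of all 7414 genes and a median of -0.02. The list was drawn up with earlier results of these data known, so its count describes the genes and is no independent evidence.

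Ndrg1, needed in Schwann cells to maintain myelin, had 1271, 1870 and 1967 at E14 and 111, 137 and 93.6 at E12. Pmp22, a membrane protein of compact peripheral myelin, had 1741, 2703 and 2319 at E14 and 244, 141 and 313 at E12. Mal, a raft protein that sorts myelin cargo, had 507, 891 and 733 at E14, while its 3 E12 values lay under the floor. In all 3 genes every E14 array stood above every E12 array, which their choice among the largest rises required. Pmp22 moved more within lot 2 (log2 4.27) than within lot 1 (2.84), around a fitted change of 3.33 (SE 0.26). Cldn11, the claudin of myelin tight junctions, had 303, 397 and 262 at E14 and 69.4, 71.3 and 96.7 at E12, a 4.04-fold change (log2 2.02, SE 0.38, adjusted p = 0.00697). Its E12 values sat just above the floor, and with the floor at the 40th percentile its adjusted p was 0.0577 (0.000102 to 0.0577 over its alternatives).

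Other proteins of the sheath did not pass the test. Cnp, an enzyme of non-compact myelin, had a log2 change of 0.05, Mag, the adhesion molecule of the inner sheath, of 0.25, and Gjb1, connexin 32 of the paranodal loops, of 0.21 (adjusted p = 0.972, 0.794 and 0.724). Mbp was measured by more than 1 probe set. The called one had 907, 1134 and 789 at E14 and 191, 218 and 163 at E12, while another lay at the floor on all 6 arrays, with a change of 0.00.

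Markers of the precursor state gave 1 call. Of 22 genes of Schwann precursors and crest-derived glia 0 were called higher and 1 (4.55%) lower, with a median log2 change of -0.07. The shares of all 7414 genes were 1.13% higher and 1.07% lower. Fabp7, the lipid-binding protein of immature glia, had a change of -0.07, Gfra3, a receptor subunit for artemin, of 0.02, Erbb3 of 0.05 and Ednrb, the endothelin receptor of crest cells, of 0.07. Cdh2, the N-cadherin of precursors, averaged 1280 ± 205 at E14 and 1284 ± 227 at E12 (SD, n = 3 each). The gene that passed was Itga4, an integrin chain that binds fibronectin and VCAM-1. It had 230, 215 and 282 at E14 and 582, 578 and 679 at E12, a 2.54-fold fall (log2 -1.34, SE 0.21, adjusted p = 0.0013), and the stages did not overlap. Another probe set of Itga4 was not called (-0.47, adjusted p = 0.451). Gap43, a growth-associated protein of growing axons and precursors, had 344, 395 and 482 at E14 and 644, 891 and 776 at E12. Its stages did not overlap, but its adjusted p was 0.0589.

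Among 20 genes of immature Schwann cells 1 (5.0%) was called higher, Dhh, and 0 lower, with a median of 0.15. The shares of all 7414 genes were 1.13% higher and 1.07% lower. Dhh encodes desert hedgehog, the signal from Schwann cells that organizes the perineurium. It had 3057, 3176 and 2804 at E14 and 832, 748 and 854 at E12. The 3 E14 arrays stood close together and far above E12, 3.72-fold higher (log2 1.89, SE 0.20, adjusted p = 2.4e-05). A second probe set of Dhh did not differ by the test (-0.01, SE 0.17, adjusted p = 1). Ptch1, the receptor and a target of hedgehog signals, had a change of -0.13 and Gli1, another target, of 0.88 (adjusted p = 0.92 and 0.123). Ncam1, an adhesion molecule of immature and non-myelinating cells, passed on 1 probe set, with 335, 327 and 351 at E14 and 168, 154 and 197 at E12 (1.96-fold, adjusted p = 0.0233). Its call was lost without any 1 of the 3 E14 arrays and E12 replicates 1 and 2 (0.0726 to 0.13, and 0.000209 to 0.13 over its alternatives). The 2 other probe sets of Ncam1 were not called (0.84 and 0.09).

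The factors that switch a Schwann cell to myelination were not called, and of the Id family of inhibitors Id1 and Id3 fell. Of 27 genes 0 were higher and 2 (7.41%) lower, with a median of 0.03, beside 1.13% higher and 1.07% lower of all 7414 genes. Egr2 had 2074, 1501 and 2963 at E14 and 1234, 550 and 695 at E12, without overlap but with an adjusted p of 0.0639. Pou3f1 had 51.6, 182 and 136 at E14, against values under the floor on all 3 E12 arrays (adjusted p = 0.695). Sox10 had a change of -0.50 (adjusted p = 0.773). Yap1, a coactivator of the Hippo pathway, had -0.48 (adjusted p = 0.514), and Jun, which opposes myelination, 0.15 (adjusted p = 0.907).

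Id3 and Id1 encode helix-loop-helix proteins that block other factors of their class and are targets of BMP signals. Id3 had 505, 649 and 702 at E14 and 1947, 2273 and 1885 at E12, a 3.31-fold fall (log2 -1.73, SE 0.20, adjusted p = 7.7e-05). Id1 had 42.2, 105 and 51.9 at E14 and 408, 255 and 154 at E12, at least 3.19-fold lower since 2 E14 arrays were at the floor (adjusted p = 0.00289). The stages did not overlap for either gene, which their choice among the largest falls required. Within lot 1 the change of Id1 was -2.57, around a fitted -1.67, and in a fit of the 6 arrays alone its adjusted p was 0.132 (3.89e-05 to 0.132 over its alternatives). Id2 and Id4, the other family members, had changes of 0.16 and 0.45 and were not called (adjusted p = 0.915 and 0.728).

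The basal lamina was represented by 18 tested genes, of which 3 (16.7%) were called higher and 0 lower, with a median of 0.38. The shares of all 7414 genes were 1.13% higher and 1.07% lower. Lama2, the long arm chain of the laminin of the Schwann cell basal lamina, had 1687, 2234 and 1925 at E14 and 101, 90.3 and 125 at E12, so that its E12 arrays were little above the floor. Lamc1, the chain that most laminins share, had 3328, 3285 and 3935 at E14 and 1908, 1757 and 2287 at E12, a smaller change of 1.78-fold (SE of log2 0.16, adjusted p = 0.00744). Without E12 replicate 2 its adjusted p was 0.0561 and with the 6 arrays alone 0.0632 (0.000346 to 0.0632 over its alternatives), and another probe set was not called. Lamb1, the third chain of that laminin, had a change of 0.83 and Lama4, a second long arm chain of the nerve, of 0.39 (adjusted p = 0.123 and 0.721).

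Col4a1, a chain of the collagen network of basal laminae, had 4542, 5821 and 4706 at E14 and 3058, 2874 and 2793 at E12 (1.72-fold, adjusted p = 0.0278). Its adjusted p passed 0.05 whenever 1 of the 6 arrays was left out (0.0516 to 0.155, and 0.0015 to 0.155 over its alternatives), with the lot as a block (0.0599) and with the replicate block (0.0539). Col4a2, its partner in the triple helix, had a change of 0.62 (adjusted p = 0.21). The linker proteins Nid1 and Nid2 had 1.14 and 1.06 and the proteoglycan perlecan, Hspg2, 0.13, and none of these passed.

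Of 12 receptors for laminin 1 (8.33%) was called higher and 0 lower, with a median of 0.24, beside 1.13% higher and 1.07% lower of all 7414 genes. Itgb4, the integrin chain that Schwann cells pair with Itga6, had 295, 306 and 297 at E14 and 91.8, 88.0 and 38.6 at E12, at least 3.65-fold higher (adjusted p = 0.0275). This call too was lost whenever 1 of the 6 arrays was left out (0.0667 to 0.102) and with the floor at the 40th percentile (0.213), from 8.69e-05 to 0.213 over its alternatives. Itga7, another laminin integrin of Schwann cells, passed on 1 of its 3 tested probe sets with 197, 252 and 240 at E14 and 82.6, 88.4 and 81.8 at E12 (2.71-fold, adjusted p = 0.0156). It was lost without any 1 of E14 replicates 2 and 3 and E12 replicates 1 and 2 (0.0586 to 0.078, and 0.000148 to 0.245 over its alternatives). Itga6, Itgb1 and the dystroglycan gene Dag1 had changes of 0.28, 0.29 and 0.37, and none passed.

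**Figure D2:**
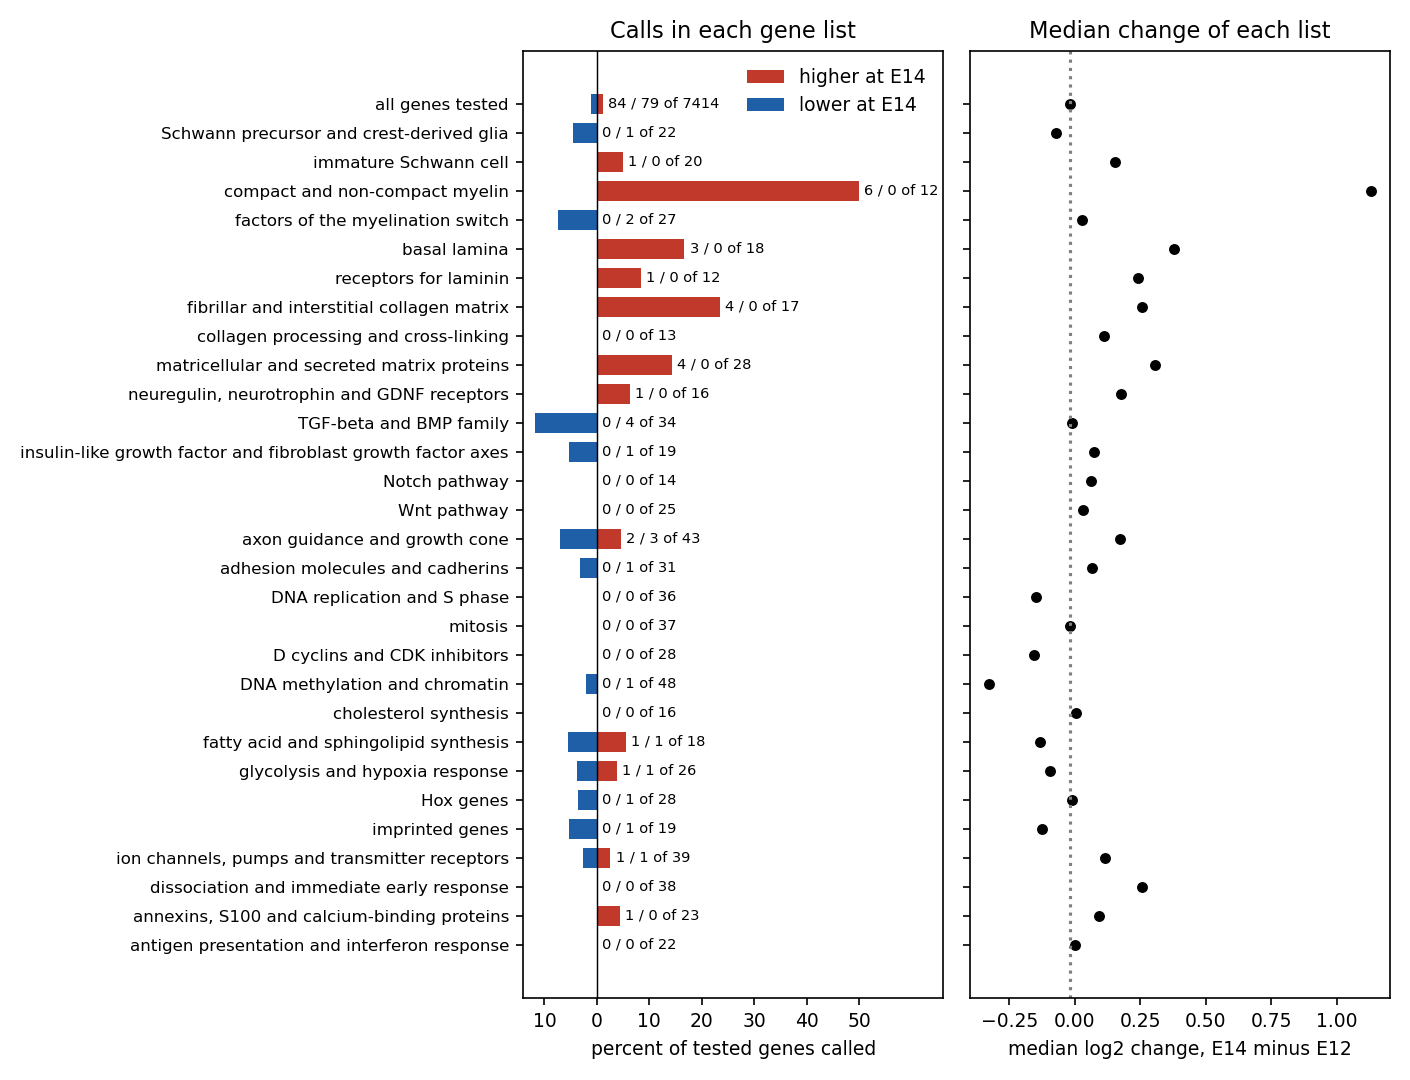
Left, percent of the tested genes of each list called higher (red, to the right) or lower (blue, to the left) at E14, with the counts higher / lower of tested beside the bars. Right, median log2 change of each list, E14 minus E12, with a dotted line at the median of all 7414 genes (-0.02). Myelin leads with 6 of 12 higher, followed by fibrillar collagens with 4 of 17.

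Some genes of the interstitial matrix rose as well. Of 17 genes of fibrillar collagen matrix 4 (23.5%) were called higher (Col1a1, Col14a1, Col3a1 and Col11a1) and 0 lower, with a median of 0.26. The shares of all 7414 genes were 1.13% higher and 1.07% lower. Col1a1, a chain of type I collagen and the largest change of all, had 2716, 4296 and 4239 at E14 and 75.3, 85.6 and 40.9 at E12. The second probe set of Col1a1 had 1629, 3269 and 2442 at E14 and 212, 224 and 187 at E12, an 11.4-fold change (SE of log2 0.30), against at least 48.2-fold on the first. Both probe sets were called, and they differ in the size of the change. Col1a2, the partner chain, had 4382, 6756 and 4957 at E14 and 2830, 3464 and 3396 at E12, without overlap, and did not pass (log2 0.71, adjusted p = 0.27).

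Col14a1, a collagen that decorates fibrils, had 825, 874 and 702 at E14 and 97.7, 68.2 and 88.8 at E12, at least 9.48-fold higher (log2 3.25, SE 0.25, adjusted p = 9.2e-07). Col3a1, of reticular fibrils, was called on 3 probe sets, by 2.10-fold, 2.81-fold and 4.06-fold. The smallest and the middle one had an adjusted p of 0.0662 and 0.129 with the 6 arrays alone, and the middle one 0.0564 without E14 replicate 3 (main 0.00134 and 0.00992, with 4.47e-05 to 0.0662 and 0.000906 to 0.129 over their alternatives). The largest, with 905, 942 and 896 at E14 and 208, 156 and 351 at E12, rose to an adjusted p of 0.0599 when E12 replicate 2 was left out and had 0.056 with the 6 arrays alone (3.41e-05 to 0.0599 over its alternatives). Col11a1, which nucleates fibrils, had 304, 316 and 374 at E14 and 88.7, 68.1 and 135 at E12, at least 3.52-fold higher (adjusted p = 0.0162). It was lost without any 1 of E14 replicates 2 and 3 and E12 replicates 1 and 2 (0.0595 to 0.113, and 6.56e-05 to 0.113 over its alternatives). Fn1, fibronectin, had a fitted change of -1.47 and did not pass (adjusted p = 0.106).

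The enzymes and chaperones that process collagen gave no call. Of 13 genes 0 were called in either direction by limma, with a median of 0.11 and 1 higher at an unadjusted p of 0.05. Of all 7414 genes 1.13% were called higher and 1.07% lower, so 0 calls in a list of this size is near that share. Of all 10414 probe sets 1132 had an unadjusted p under 0.05. Serpinh1, the collagen chaperone Hsp47, had 1732, 3821 and 2848 at E14 and 1854, 2103 and 2609 at E12, with overlapping stages (log2 0.30, SE 0.40, adjusted p = 0.867). Ppib, a prolyl isomerase of the same pathway, had 2012, 2435 and 2052 at E14 and 2494, 2347 and 2246 at E12, also overlapping. Both were abundant at each stage.

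Of 28 matricellular and secreted matrix proteins 4 (14.3%) were called higher (Reln, Matn2, Tnc and Gpc4) and 0 lower, with a median of 0.31. The shares of all 7414 genes were 1.13% higher and 1.07% lower. Reln, a large glycoprotein that guides migrating neurons in the brain, had 930, 1279 and 1118 at E14 and 38.7, 19.8 and 88.2 at E12. Another probe set of Reln was not called (log2 0.79, SE 0.60, adjusted p = 0.7). Tnc, tenascin C, an adhesion-modulating protein of embryonic nerve, had 502, 751 and 932 at E14 and 68.1, 61.5 and 143 at E12, at least 8.07-fold higher (SE of log2 0.47, adjusted p = 0.0013). Its second probe set was also called (1694, 1315 and 2164 at E14 and 310, 373 and 229 at E12, 5.67-fold). Matn2, a matrix adaptor protein made by Schwann cells, had 4608, 5335 and 4367 at E14 and 1492, 562 and 1580 at E12 on its brighter probe set (4.33-fold, adjusted p = 0.00119, and 0.102 with the 6 arrays alone, with 6.01e-05 to 0.102 over its alternatives). The dimmer one had 692, 593 and 1007 at E14 and 145, 27.7 and 60.6 at E12 and gave at least 8.46-fold, with a log2 change of 2.25 within lot 1 around a fitted 3.08. Gpc4, a heparan sulfate proteoglycan of the cell surface, had 647, 660 and 957 at E14 and 116, 123 and 122 at E12 (6.18-fold, SE of log2 0.30, adjusted p = 5.7e-05). On the called probe sets no E14 value of these 4 genes fell among the E12 values. For the probe sets of Reln, Matn2 and Tnc among the largest rises, the rule of choice required this.

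Collagen genes are also markers of fibroblasts, and some of these moved. Of 18 fibroblast markers tested 3 (16.7%) were called higher (Col1a1, Col14a1 and Col3a1, all named above) and 0 lower. Among all 7414 genes the shares were 1.13% higher and 1.07% lower. At the unadjusted threshold used for the other cell types 5 fibroblast markers were higher and 0 lower. By that threshold 1132 of all 10414 probe sets differed in either direction. The 20 fibroblast markers on the array summed to 22796.7 to 30668.5 at E14 and to 14868.4 to 18524.2 at E12. These sums include the 3 called collagens, so their difference is not separate from those calls. Fap and Prrx1 were at the floor on all 6 arrays. Pdgfra, the receptor that defines nerve fibroblasts, had 128, 177 and 112 at E14 and 131, 133 and 102 at E12, with overlapping stages. Dcn, the fibroblast proteoglycan decorin, had 493, 323 and 273 at E14 and 123, 63.5 and 83.4 at E12 without overlap, and did not pass (adjusted p = 0.375). Tcf21, Thy1 and Twist2 were within 1.5-fold between the stages by their means. The part of fibroblasts in the collagen changes was not tested. Markers of cartilage and perineurium summed to 2811.04 to 4282.66 at E14 and to 2245.38 to 2344.67 at E12, with Itgb4 as the 1 call of 11. At the unadjusted threshold 4 of these 11 were higher and 0 lower.

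**Figure D3:**
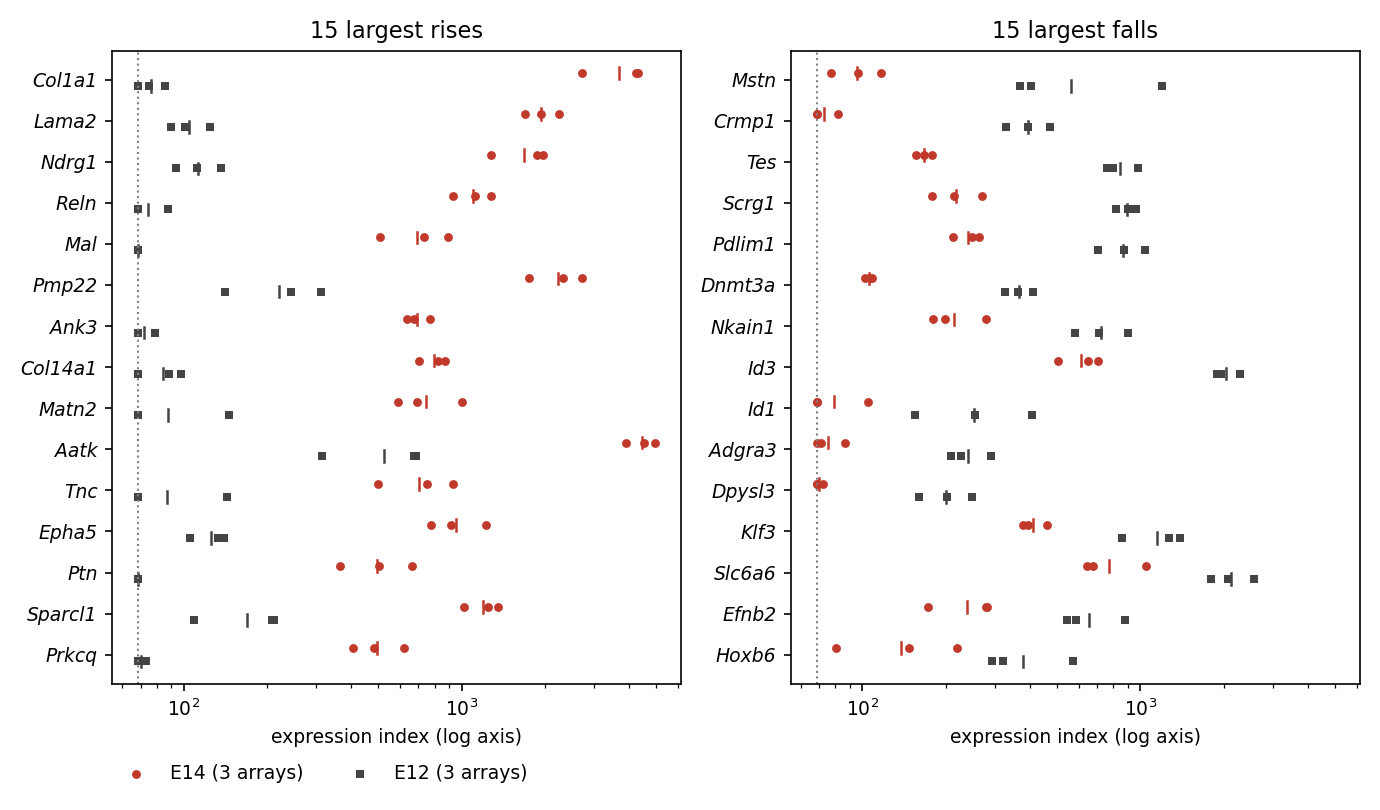
Expression index on each array of the 15 largest rises (left) and the 15 largest falls (right) by fitted change, on a log axis, with E14 as red circles above E12 as dark squares and a tick at each stage's mean. Values under the dotted floor are drawn on it. No gene's stages overlap, which the rule of choice required.

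The list of TGF-beta and BMP signals and their targets had the most falls. Of 34 genes 0 were called higher and 4 (11.8%) lower (Mstn, Id3, Id1 and Acvr2b), and the median was -0.01. The shares of all 7414 genes were 1.13% higher and 1.07% lower. Id3 and Id1 are targets, and they are the same 2 falls counted above among the factors of myelination. Mstn, myostatin, a ligand that limits muscle growth, had 96.1, 77.4 and 116 at E14 and 370, 1200 and 403 at E12. The stages did not overlap, which its choice among the largest falls required, and E12 replicate 2 stood far above the other E12 arrays. The fitted fall was 5.92-fold (log2 -2.56, SE 0.38, adjusted p = 0.00087), -1.95 within lot 1 and -3.95 within lot 2, and the adjusted p was 0.0925 in a fit of the 6 arrays alone (6.05e-05 to 0.0925 over its alternatives). Acvr2b, the receptor that myostatin and activins bind, had 328, 432 and 304 at E14 and 637, 870 and 756 at E12 (2.14-fold lower, adjusted p = 0.0186). It was not called with the lot as a block (0.0572), with the replicate block (0.0631), with the GAPDH covariate (0.0566) or without any 1 of E14 replicates 1 and 3 and E12 replicates 2 and 4 (0.0539 to 0.119, and 0.000345 to 0.119 over its alternatives). The BMP receptors Bmpr1a and Bmpr2 and the mediators Smad1 and Smad5 had changes between -0.42 and 0.21 and did not pass.

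Receptors for axonal and trophic signals gave 1 call. Of 16 genes of the neuregulin, neurotrophin and GDNF families 1 (6.25%) was called higher, Ntrk3, and 0 lower. The shares of all 7414 genes were 1.13% higher and 1.07% lower. Ntrk3, the receptor for neurotrophin 3, had 319, 452 and 534 at E14 and was under the floor on all 3 E12 arrays, at least 6.21-fold higher (adjusted p = 0.0177). Its adjusted p passed 0.05 without any 1 of E14 replicates 2 and 3 and the 3 E12 arrays (0.0501 to 0.0875, and 8.9e-05 to 0.0875 over its alternatives). Gfra1, Gfra3, Erbb3 and Il6st had changes of 0.02 to 0.20. Of 19 genes of the IGF and FGF axes 1 was called lower, Igfbp2, a binding protein for insulin-like growth factors, with 101, 128 and 66.7 at E14 and 170, 256 and 223 at E12 (at least 2.22-fold, adjusted p = 0.0105). Without E14 replicate 3 or E12 replicate 2 its adjusted p was 0.0643 or 0.0734 (0.000428 to 0.138 over its alternatives).

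The Notch and Wnt pathways gave no call. Of 14 Notch genes and 25 Wnt genes 0 passed by limma, with medians of 0.06 and 0.03. At an unadjusted p of 0.05 the Notch list had 1 higher and 1 lower and the Wnt list 1 higher, beside 1132 of all 10414 probe sets. Of all 7414 genes 1.13% were called higher and 1.07% lower, so 0 calls in lists of these sizes is near that share. Notch1, the receptor whose signal drives precursors towards immature Schwann cells in the mouse, had 3141, 3253 and 3519 at E14 and 2821, 2690 and 3212 at E12. Those values overlap (log2 0.19, SE 0.28, adjusted p = 0.89). Ctnnb1, beta-catenin, had 4727, 4604 and 5063 at E14 and 5452, 5430 and 6257 at E12, lower without overlap but not past the test (adjusted p = 0.789).

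Guidance molecules moved both ways. Of 43 genes of axon guidance and the growth cone 2 (4.65%) were called higher (Epha5 and Epha7) and 3 (6.98%) lower (Crmp1, Dpysl3 and Efnb2). Their median was 0.17, and the shares of all 7414 genes were 1.13% higher and 1.07% lower. Epha5, a receptor for ephrin-A ligands, had 920, 778 and 1222 at E14 and 133, 105 and 140 at E12 (7.65-fold, log2 2.94, SE 0.35, adjusted p = 7.8e-05). The change on its other probe set was not called (0.50, adjusted p = 0.496). Epha7, a receptor of the same class, had 254, 159 and 304 at E14 and 124, 92.1 and 111 at E12 (2.13-fold, adjusted p = 0.00303, and 0.143 in the 6 arrays alone, with 2.36e-05 to 0.143 over its alternatives).

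Crmp1 and Dpysl3 belong to a family of cytosolic proteins that relay semaphorin signals to microtubules. Crmp1 had 81.6, 48.4 and 66.1 at E14 and 328, 394 and 473 at E12. Dpysl3 had 66.4, 72.1 and 65.7 at E14 and 160, 201 and 247 at E12, at least 2.86-fold lower (SE of log2 0.17, adjusted p = 4e-05). Both thus lay at or beside the floor at E14. Dpysl2, the family member most used by neurons, had a change of 0.52 and Dpysl4 of -1.19, and neither passed (adjusted p = 0.42 and 0.127). Efnb2, an ephrin ligand of vessels and nerve cells, had 279, 281 and 172 at E14 and 880, 543 and 587 at E12 (2.75-fold lower, adjusted p = 0.0362). It was lost whenever 1 of the 6 arrays was left out (0.0644 to 0.183), with the lot as a block (0.096) and with the replicate block (0.099), from 0.00278 to 0.313 over its alternatives.

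The other large rises were of membrane scaffolds, kinases and secreted proteins. Ank3, ankyrin G, which anchors sodium channels at axon initial segments and nodes, had 767, 674 and 636 at E14 and 61.2, 78.7 and 33.5 at E12, at least 9.62-fold higher (SE of log2 0.34, adjusted p = 2e-05). Its second probe set was also called, by at least 6.41-fold (adjusted p = 0.00331, and 0.0588 with the 6 arrays alone, with 0.000213 to 0.0588 over its alternatives). Aatk, a membrane-bound kinase of neural tissue, had 3892, 4966 and 4534 at E14 and 676, 314 and 688 at E12 (8.43-fold, SE of log2 0.24, adjusted p = 9.2e-07). Its E12 replicate 2 was the lowest, and the log2 change was 3.98 within lot 2 around a fitted 3.08. Both genes stood apart between the stages, which their choice among the largest rises required. Sparcl1, a secreted relative of osteonectin, had 1021, 1243 and 1353 at E14 and 209, 109 and 212 at E12 (7.09-fold, adjusted p = 0.00028, log2 3.51 within lot 2 around a fitted 2.83). Ptn, pleiotrophin, a heparin-binding growth factor, had 506, 366 and 662 at E14 and was under the floor on all 3 E12 arrays (at least 7.25-fold, adjusted p = 0.0014). Prkcq, a protein kinase C, was called on 2 probe sets, on that of the larger change with 406, 623 and 484 at E14 and 69.4, 73.5 and 68.2 at E12 (at least 7.05-fold). The other (at least 4.12-fold, adjusted p = 0.00869) had 0.0605 without E14 replicate 2 and 0.151 with the floor at the 40th percentile (3.03e-05 to 0.151 over its alternatives). Ahnak, a large scaffold under the membrane, had 3848, 3558 and 3776 at E14 and 1577, 1983 and 1068 at E12 (2.49-fold, adjusted p = 0.0108, and 0.0539 without E12 replicate 4, with 0.000518 to 0.0738 over its alternatives).

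The other large falls included proteins of actin structures. Tes, a LIM protein of focal adhesions, had 178, 156 and 166 at E14 and 758, 799 and 982 at E12 (5.05-fold lower, adjusted p = 0.0174). Its stages were far apart, yet the call was lost without any 1 of the 3 E14 arrays and E12 replicates 2 and 4 (0.0549 to 0.0748, and 1.13e-05 to 0.144 over its alternatives), and another probe set of Tes was not called. Pdlim1, which links LIM proteins to alpha-actinin, had 249, 262 and 212 at E14 and 706, 1042 and 873 at E12 (3.59-fold lower, SE of log2 0.22, adjusted p = 0.000108). Another probe set was not called (-0.77, adjusted p = 0.286). Adgra3, an adhesion receptor of the G protein-coupled class, had 63.0, 86.4 and 71.2 at E14 and 208, 226 and 291 at E12, at least 3.19-fold lower (adjusted p = 8.6e-06).

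Slc6a6, the taurine transporter, had 675, 1046 and 643 at E14 and 1788, 2565 and 2062 at E12 (2.75-fold lower, adjusted p = 0.00119). A second probe set of the gene was called as well, 2.26-fold lower (adjusted p = 0.0458), but not without any 1 of the 3 E14 arrays and E12 replicates 2 and 4 (0.0897 to 0.242, and 0.000515 to 0.242 over its alternatives), nor with the replicate block (0.0885). In a fit of the 6 arrays alone the first had an adjusted p of 0.0672 (9.01e-06 to 0.0672 over its alternatives). Klf3, a zinc finger repressor, had 394, 461 and 378 at E14 and 1390, 1265 and 860 at E12 (2.80-fold lower, adjusted p = 0.0255). It was lost without any 1 of the 3 E14 arrays and E12 replicates 1 and 2 (0.0639 to 0.122, and 0.000181 to 0.122 over its alternatives), and its other probe set was not called. Of 28 Hox genes 1 (3.57%) was called lower and 0 higher, beside 1.07% and 1.13% of all 7414 genes. This homeobox gene, Hoxb6, had 80.6, 218 and 147 at E14 and 293, 321 and 571 at E12 (adjusted p = 0.0478). It was lost without any 1 of E14 replicates 1 and 3 and the 3 E12 arrays (0.0623 to 0.225), with the lot as a block (0.0837) and with the replicate block (0.08), from 0.00118 to 0.23 over its alternatives. Its log2 change of -1.46 was -0.55 within lot 2.

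Proliferation genes gave no call. Of 36 genes of DNA replication, 37 of mitosis and 28 of the D cyclins and CDK inhibitors 0 were called in either direction by limma, with medians of -0.15, -0.02 and -0.16. At an unadjusted p of 0.05 these lists had 0, 1 and 2 lower and 0 higher, beside 1132 of all 10414 probe sets in either direction. Of all 7414 genes 1.13% were called higher and 1.07% lower, so 0 calls in lists of these sizes is near that share. Pcna, the replication clamp, had 2864, 2939 and 3101 at E14 and 2741, 2672 and 2938 at E12, with overlapping stages (log2 0.09, SE 0.18, adjusted p = 0.921). Cdkn1c, the inhibitor p57Kip2, had 5447, 6168 and 5902 at E14 and 6122, 7534 and 7506 at E12, overlapping as well (log2 -0.27, SE 0.30).

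Genes of DNA methylation and chromatin had the lowest median of the lists, -0.33, with 39 of 48 fitted changes below 0, though 1 was called lower, Dnmt3a, and 0 higher. Of all 7414 genes 3916 had a fitted change below 0, and 1.13% were called higher and 1.07% lower. At an unadjusted p of 0.05 the list had 0 higher and 8 lower, beside 1132 of all 10414 probe sets in either direction. Dnmt3a, the de novo DNA methyltransferase, had 102, 108 and 106 at E14 and 326, 412 and 364 at E12. The lack of overlap was required by its choice among the largest falls. Dnmt3a was called in each alternative except where the floor was lowered to the 10th percentile (0.13, and 5.89e-06 to 0.13 over its alternatives). Ezh2, the methyltransferase of Polycomb complex 2, had a change of -0.62 and Dnmt1, the maintenance methyltransferase, of -0.43 (adjusted p = 0.543 and 0.81). Cbx2, a Polycomb subunit, was called lower on a second probe set with 169, 134 and 218 at E14 and 305, 461 and 401 at E12 (adjusted p = 0.0208, log2 -1.17 and -1.79 within lot 2), while its brighter probe set had a change of 0.29. That call was lost with the lot as a block (0.0544), with the replicate block (0.0568) and without any 1 of E14 replicates 1 and 2 and E12 replicates 2 and 4 (0.0646 to 0.131, and 0.000267 to 0.131 over its alternatives).

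Genes of lipid synthesis gave 1 call each way. Of 16 cholesterol genes 0 were called by limma and 0 had an unadjusted p under 0.05, with a median of 0.01. Of all 7414 genes 1.13% were called higher and 1.07% lower, and 1132 of 10414 probe sets had an unadjusted p under 0.05. Sqle, squalene epoxidase, had 599, 600 and 701 at E14 and 657, 698 and 752 at E12, overlapping. Of 18 genes of fatty acid and sphingolipid synthesis 1 was called higher and 1 lower. Me1, malic enzyme, which supplies NADPH for lipid synthesis, had 589, 444 and 802 at E14 and 196, 335 and 159 at E12 (2.72-fold, log2 1.44, adjusted p = 0.0234), and within lot 2 the log2 change was 0.41. It was lost without any 1 of E14 replicates 1 and 3 and E12 replicates 1 and 4 (0.0735 to 0.129, and 0.00249 to 0.141 over its alternatives). Fabp5, a fatty acid carrier, had 1442, 1187 and 1320 at E14 and 3307, 3201 and 3108 at E12 (2.44-fold lower, adjusted p = 0.0378). The spread within each stage was small, yet the adjusted p passed 0.05 whenever 1 of the 6 arrays was left out (0.0819 to 0.158), with the lot as a block (0.0544) and with the replicate block (0.051), from 0.000747 to 0.158 over its alternatives.

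The remaining lists had at most 1 call in each direction. In lists of these sizes 1 call is 2.56% to 5.26%, beside 1.13% higher and 1.07% lower of all 7414 genes. Of 31 adhesion molecules 1 was lower, Itga4, and of 23 annexins, S100 and calcium-binding proteins 1 was higher, Ahnak. Of 26 genes of glycolysis and hypoxia 1 was lower besides the rise of Ndrg1, namely Pdk1, a kinase that turns off pyruvate dehydrogenase (233, 163 and 139 at E14 and 366, 355 and 314 at E12, adjusted p = 0.0262). Pdk1 was lost without any 1 of E14 replicates 2 and 3 and E12 replicates 1 and 2 (0.108 to 0.139, and 0.00489 to 0.139 over its alternatives). Of 39 genes of channels, pumps and transmitter receptors 1 was higher, the potassium channel Kcna4, and 1 lower, Nkain1. Kcna4 had 130, 138 and 196 at E14 and 46.2, 94.3 and 65.4 at E12 (adjusted p = 0.0262), and was lost with the lot as a block (0.0564), with the replicate block (0.0688) and without any 1 of E14 replicates 2 and 3 and E12 replicates 1 and 4 (0.0599 to 0.14, and 0.00361 to 0.528 over its alternatives). Nkain1, which binds the sodium pump, had an adjusted p of 0.011 but passed 0.05 when E14 replicate 2 or 3 or E12 replicate 2 was left out (0.0576 to 0.0734, and 0.000256 to 0.0734 over its alternatives). Of 19 imprinted genes 1 was lower, Grb10, an adaptor that restrains growth (106, 153 and 174 at E14 and 251, 211 and 446 at E12, adjusted p = 0.03). Grb10 was lost without any 1 of E14 replicates 1 and 2 and E12 replicates 1 and 4 (0.0503 to 0.159, and 0.00271 to 0.227 over its alternatives).

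Genes that respond to tissue dissociation were looked at because the cells were sorted. Of 38 tested 0 were called by limma, with a median of 0.26 and 26 fitted changes above 0. Of all 7414 genes 3410 had a fitted change above 0, and 1.13% were called higher and 1.07% lower. At an unadjusted p of 0.05 there were 7 higher and 0 lower, beside 1132 of all 10414 probe sets in either direction. The 39 on the array summed to 60143.0 to 70140.7 at E14 and to 44260.7 to 71325.6 at E12, so the stages overlap. Fos had a change of 1.00, Atf3 of 1.54 and Socs3 of 1.58 (adjusted p = 0.576, 0.167 and 0.322). Hspd1, a mitochondrial chaperone, was called higher on a dim probe set (1.76-fold, adjusted p = 0.00926, and 0.0592 without E14 replicate 1, with 9.3e-05 to 0.0869 over its alternatives). Its brighter probe set went the other way and was not called (log2 -0.50, adjusted p = 0.486). It had 2158, 2399 and 2449 at E14 and 3326, 3661 and 2977 at E12. Of 22 genes of antigen presentation and interferon response 0 were called by limma and 1 was lower at an unadjusted p of 0.05.

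Levels over all 6 stages show where the changes led. Of the 112 probe sets called higher 28 had their highest stage mean at E14, 28 at E16, 35 at E18, 20 at P0 and 1 at E9.5. At E16 25 stood at over 2 times their E14 mean and 14 at under 0.5 times. Of the 106 called lower 77 had their highest mean at E12 and 29 at E9.5, and none had a P0 mean above its E12 mean. Since the calls were chosen for a difference between E14 and E12, these counts describe them and test nothing.

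Several of the rises stayed high. In the order E12, E14, E16, E18, P0, Dhh averaged 811 ± 56.0, 3013 ± 190, 3584 ± 505, 3506 ± 164 and 3730 ± 1194 (SD, n = 4 at E16 and 3 elsewhere). Aatk averaged 559 ± 212, 4464 ± 540, 4937 ± 839, 5844 ± 865 and 5540 ± 411 in that order, so that in both genes the E14 mean lay nearer to the later means than to that of E12. Lama2 averaged 105 ± 17.6, 1949 ± 274, 5556 ± 1108, 6441 ± 706 and 6033 ± 876 and thus stood lower at E14 than at each later stage. Id3 averaged 2035 ± 209 at E12, 619 ± 102 at E14 and 140 ± 24.5 at E16, and at E14 lay between both neighbouring stages. Scrg1, a small secreted protein, did the same on its way to the floor, with 896 ± 76.0 at E12, 220 ± 45.6 at E14 and 11.9 ± 9.71 at E16.

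Some genes were high at E14 and lower on both sides of it. Corin, a membrane protease that activates natriuretic peptides, averaged 61.8 ± 36.7 at E12, 444 ± 118 at E14 and 76.2 ± 25.6 at E16. Col26a1, a small collagen, averaged 98.0 ± 18.9 at E12, 499 ± 83.1 at E14 and 184 ± 70.1 at E16. Ctnnd2, delta-catenin of neural adherens junctions, averaged 208 ± 45.0 at E12, 671 ± 126 at E14 and 84.6 ± 14.4 at E16. Slco3a1, an organic anion transporter, averaged 209 ± 47.7 at E12, 768 ± 162 at E14 and 256 ± 122 at E16. These 4 genes were chosen after their values were seen, and their lower level at E16 is a description. Slco3a1 (adjusted p = 0.0119 for E14 against E12) was not called without any 1 of E14 replicates 2 and 3 and E12 replicates 1 and 2 (0.0518 to 0.0726, and 4.29e-05 to 0.0726 over its alternatives).

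**Figure D4:**
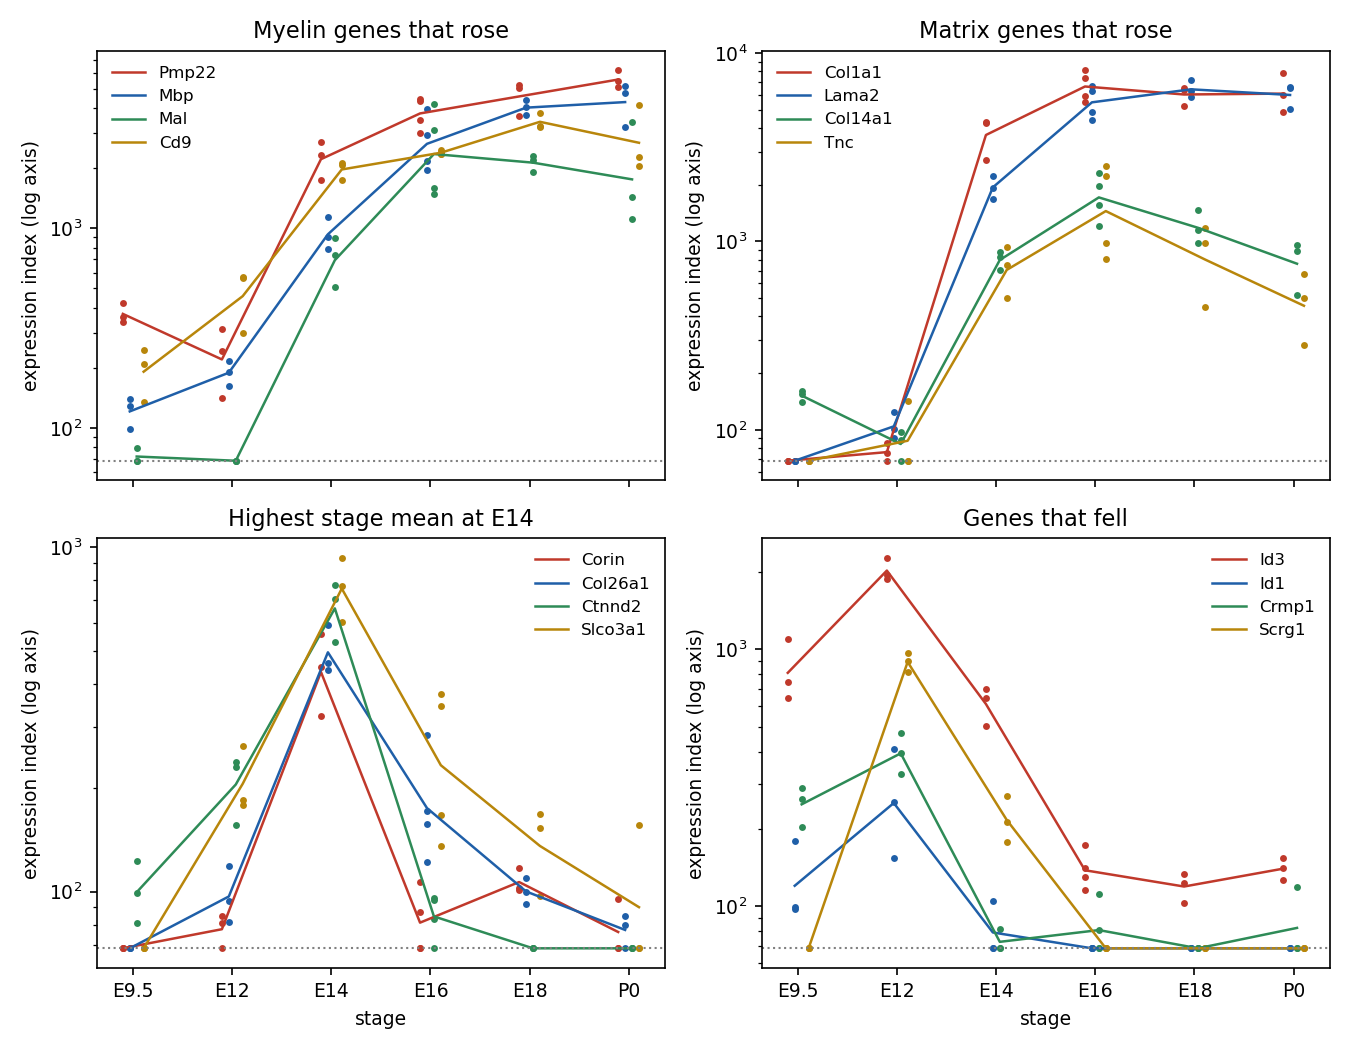
Expression index (log axis) of 4 genes per panel at E9.5, E12, E14, E16, E18 and P0; points are arrays, lines join stage means, and values under the dotted floor are drawn on it. The 8 myelin and matrix genes shown have higher means at E14 than at E12, Corin, Col26a1, Ctnnd2 and Slco3a1 have their highest mean at E14, and Id3, Id1, Crmp1 and Scrg1 have their highest mean at E12.

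Comparisons of later stages, whose means use no E14 or E12 array, show how the called probe sets went on. They come from the same fit and share its estimate of the spread with the contrast of E14 and E12. The shares called are therefore not independent of the choice of these probe sets. Of the 112 called higher at E14, 2 were called lower and 0 higher at E18 against E16, where 0.0672% of all probe sets were lower and 0.0096% higher. Both were probe sets of Sncg, gamma-synuclein of sensory axons and glia, which averaged 223 ± 24.0 at E18 and 606 ± 32.2 at E16 on the brighter. At P0 against E16, 11 (9.82%) were called lower and 2 (1.79%) higher, beside 1.96% and 0.663% of all probe sets. When the arrays of lot 1 were dropped from E16 and P0, 12 were lower and 0 higher, beside 1.26% and 0.442%.

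The genes lower at P0 were Reln, Col14a1, Col26a1, Col8a1, Col9a3, Capn6, Crabp1, Klkb1, Epb41l4b and Sncg. Of these, Col14a1, Col26a1, Col8a1 and Col9a3 encode collagens, a grouping made after their values were seen. Col14a1 averaged 788 ± 233 at P0 and 1763 ± 478 at E16 (log2 -1.17, SE 0.24, adjusted p = 0.0142), and Reln 1474 ± 650 at P0 and 3186 ± 1039 at E16 (-1.14, SE 0.26, adjusted p = 0.0306). Lama2, Col1a1 and Pmp22 were not called between P0 and E16. Of the 106 called lower at E14, 4 (3.77%) were lower again at P0 against E16 and 1 (0.943%) higher, and 0 were called at E18 against E16. The 1 higher was Slc6a6, which averaged 1952 ± 175 at P0 and 863 ± 183 at E16 (SE of log2 0.21, adjusted p = 0.0058). Its mean at E12 was 2138 ± 394.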

How the data were processed

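The authors deposited model-based expression indices, a linear intensity for each probe set on each array. Per the labels' protocols, scans were read with MAS 5.0 and dChip did the rest: a smoothing-spline normalization, sensitivities of the probes from 18 arrays, and the index. Which array those left out, and the dChip version, are not given in the sources used here. Probe affinity enters the index, so levels are compared between stages and not between genes.

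Probe sets were named through GEO's annotation of the array. Of 12488, 66 controls were left out, 10833 carried 1 symbol, 396 several and 1193 none, and 10817 of the first were found in RefSeq by gene identifier, which updated 0 symbols. Of the calls 13 carried several symbols or none and are not named.

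All values were floored at their 25th percentile (68.5) before log2 was taken. Probe sets above it on fewer than 3 of the 19 arrays were dropped. A linear model with a mean per stage was fitted to all 19 arrays (limma 3.58.1, lmFit and eBayes, R 4.3.3, 13 residual degrees of freedom) and the contrast E14 minus E12 was tested, 2-sided, with Benjamini-Hochberg adjustment over all probe sets. The script was tested on simulated data. Values printed per array are as deposited, in the order of replicates 1, 2 and 3 at E14 and 1, 2 and 4 at E12. A fold is the ratio of the geometric means of the floored values, and with 1 or more arrays of the lower stage at the floor it is a lower bound on that ratio for the values as deposited, written "at least". Unadjusted, 1132 probe sets had a p under 0.05.

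The genes and lists were chosen with earlier results of these data known. Named are the 15 largest rises and 15 largest falls among calls with a lone symbol and stages that do not overlap, and from each list up to 6 members that passed or, where none passed, the 2 of highest mean. Other members are given by value where a group or pathway is described, and all others outside the rule are marked. A list uses, for each gene, the probe set of highest mean over the 19 arrays. No test was run on a list.

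Replicates 1 and 2 occur at both stages, and their numbers equal the lots. Whether they pair was checked with deviations from the stage means over probe sets: r was 0.211 for replicate 1 and -0.0863 for replicate 2, so the numbers were not taken as pairs. The alternatives were other floors, no filter, quantile normalization, the 6 arrays alone, the lot or the replicate as a block, the GAPDH signal as a covariate, array weights and leaving out each array. One was added after seeing the data, dropping the arrays of lot 1 from E16 and P0.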

Additional observations from a re-analysis of the deposited data

How the results depend on the processing

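Of the 56 named calls, 0 changed sign under any of the 16 alternative fits or within lot 1 or lot 2, 26 kept an adjusted p under 0.05 throughout and 30 lost it under 1 or more. For a call whose stages do not overlap, the sign within a lot is set in advance. The count of probe sets higher and lower at E14 was 112 and 106, and 179 and 97 with the GAPDH covariate, which moves the balance towards higher calls, and 406 and 767 with array weights, which move it towards lower calls. The cause was not tested. Leaving out each array in turn gave 74 to 90 higher and 53 to 127 lower. The lowest counts came without E14 replicate 3 (74 and 68), E12 replicate 2 (74 and 54) and E14 replicate 2 (82 and 53). The other settings gave 85 to 139 higher and 78 to 142 lower, all within 1.5 times. With the floor at the 10th percentile 114 were higher and 78 lower, and at the 40th percentile 91 and 117, so the split moves with the floor. A fit of the 6 arrays alone called 169, of which 107 were among the 218. With the replicate block 117 were higher and 80 lower, and 173 of the 218 calls remained. Of the named calls the block ended those of Acvr2b (adjusted p = 0.0631), Cbx2 (0.0568), Col4a1 (0.0539), Efnb2 (0.099), Fabp5 (0.051), Hoxb6 (0.08) and Kcna4 (0.0688), and no other of the 56. A list's median and count rest on intensity above the floor, and at least 23.1% of probe sets lay at it on each of the 6 arrays, so falls to the floor and rises out of it are bounds.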

Other observations

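Genes that handle retinoic acid, a vitamin A signal of the embryo, moved in both directions. They were picked out after their values were seen and no list of them was counted. Crabp1, a cytosolic carrier of retinoic acid, had 2152, 2100 and 2734 at E14 and 838, 950 and 642 at E12, 2.89-fold higher (adjusted p = 0.0108). Its call was lost without E14 replicate 3 or E12 replicate 4 (0.0507 to 0.0638, and 7.45e-05 to 0.0638 over its alternatives). Crabp1 averaged 2836 ± 215 at E9.5 and 864 ± 97.8 at E16, so that its E14 mean lies above those of E12 and E16 and below that of E9.5. Crabp2, the carrier that passes the ligand to its nuclear receptor, had 466, 370 and 445 at E14 and 653, 705 and 967 at E12, 1.80-fold lower (adjusted p = 0.0036, and 0.113 with the 6 arrays alone, with 0.000744 to 0.113 over its alternatives). Aldh1a3, an enzyme that makes retinoic acid, was under the floor on all 3 E14 arrays and had 149, 178 and 165 at E12, at least 2.39-fold lower (adjusted p = 1.3e-06, and 0.0684 with the floor at the 40th percentile, with 6.85e-10 to 0.0684 over its alternatives). Rarres2, chemerin, named for its response to retinoids in skin, had 498, 445 and 431 at E14 and 167, 136 and 105 at E12, 3.42-fold higher (adjusted p = 0.0099). The stages of these 4 genes did not overlap.

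Regulators of the actin cytoskeleton also split, again picked after their values were seen. Capg, which caps actin filaments, was higher on 2 of its 3 probe sets, by 4.69-fold and 5.10-fold (adjusted p = 0.00056 and 0.0028), and was called there in all 16 alternative fits. Ezr, ezrin, which ties actin to the membrane, was 2.99-fold higher (adjusted p = 0.0137), but not past the test without E14 replicate 3 or E12 replicate 2 or 4 (0.0526 to 0.0804, and 4.69e-05 to 0.0804 over its alternatives). Enah, an actin regulator of growth cones, had 227, 215 and 306 at E14 and 533, 635 and 709 at E12, 2.53-fold lower (adjusted p = 0.0015), and it too was called in all 16 alternative fits, while a second probe set near the floor was not called. Tes and Pdlim1, described above, lie on the lower side as well.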
